A study of Mus musculus with 81 samples.

Results

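The genes described here encode the enzymes of oxidative phosphorylation. They were chosen by name: nuclear genes whose symbols begin with Nduf, Uqcr, Cox4, Cox5, Cox6, Cox7, Cox8 or Atp5, and genes of the mitochondrial genome whose symbols begin with mt-Nd, mt-Co, mt-Cytb or mt-Atp. This rule found 118 distinct symbols in 3 tables of gene counts from mouse hippocampal area CA1. The table of the depletion experiment held 116 of them among its 55536 rows, 103 nuclear and 13 mitochondrial. The table of the training experiment held 90 of 20801, and that of intact mice held 88 of 24500, all of them nuclear.

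Oxidative phosphorylation is how mitochondria make most of the ATP of a neuron. Complex I (the Nduf and mt-Nd genes) takes electrons from NADH, complex III (Uqcr, mt-Cytb) passes them on, complex IV (Cox, mt-Co) gives them to oxygen, and complex V (Atp5, mt-Atp) uses the resulting proton gradient to make ATP. Each of these complexes is built from proteins of both genomes, so that its assembly needs both sets of transcripts. In area CA1 much of this ATP is spent on ion pumping and synaptic transmission.

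All mice were male C57BL/6J. In the depletion experiment an adeno-associated virus of serotype DJ was injected into dorsal area CA1. It carried a short hairpin RNA under the U6 promoter and GFP under the CMV promoter, neither of which restricts expression to neurons. The groups were shScr (a scrambled hairpin), shH2afy (against the gene of the histone variant mH2A1) and shH2afy2 (against that of mH2A2), with 3 mice each and no further treatment. No group of this experiment was free of virus, and the titres given for the targeting viruses differ. The training experiment had shScr and shH2afy mice, each untrained or trained, with 3 in each of the 4 groups, and the intact mice carried no virus and were untrained (3 mice) or trained (2 mice). Training was contextual fear conditioning, with brains taken 1 h later, and untrained mice stayed in the home cage. Library totals were 9954415 to 18750763 counts in the depletion experiment, 81351559 to 92226421 in the training experiment and 48769140 to 58655523 in the intact mice. The series held 81 samples in all, the others being chromatin immunoprecipitations and their inputs.

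The targeted genes were checked first. In the depletion experiment H2afy stood at 43.5, 44.5 and 38.7 CPM (counts relative to the scaled library total) in the shH2afy libraries and at 60.7, 59.2 and 50.6 CPM in the shScr libraries, a log2 difference of -0.37 (SE 0.10, adjusted p = 0.031), which did not pass the study's threshold of 0.01. H2afy2 stood at 13.2, 8.21 and 7.74 CPM in the shH2afy2 libraries and at 18.2, 19.0 and 18.2 CPM in the shScr libraries (log2 difference -0.95, adjusted p = 0.0907). Both targets were below the shScr range in every library of their group. In the training experiment Macroh2a1, as that table names the H2afy gene, was not lower in the libraries labelled shH2afy. Its log2 difference from shScr was 0.13 in untrained mice (adjusted p = 0.0868) and 0.16 in trained mice (adjusted p = 0.0793), and every library labelled shH2afy was above every shScr library of the same training state. Counts of the training experiment covered whole transcripts, introns included, so they do not measure the spliced transcript alone. Whether the spliced transcript was lower was not tested. These libraries are therefore called "labelled shH2afy" throughout.

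Stretches of 6 complex I promoters are shown because the nuclear subunits, spread over many chromosomes, were lower together in the mH2A1 depletion. For each of 3 letter patterns known from promoters of respiratory genes, those of nuclear respiratory factor 1 (NRF1) sites (a GCGC block on either side of 2 bases of any kind), CCGGAAG and GCCATNTTG, the 2 subunits with the smallest p in the mH2A1 depletion that carried it wholly before the start site are given. The sequences are those of RefSeq (build GRCm38.p6), each of 60 bases taken from the 250 bases before the annotated start, 5′ to 3′ on the strand of the gene, with the matched letters in capitals.
Ndufv2 (chr17:66101560-66101619, minus strand), NRF1 letters: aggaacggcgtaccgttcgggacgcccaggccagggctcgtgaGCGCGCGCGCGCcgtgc
Ndufa11 (chr17:56717677-56717736, plus strand), NRF1 letters: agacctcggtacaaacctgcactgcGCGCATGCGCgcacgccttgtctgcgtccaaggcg
Ndufb6 (chr4:40279612-40279671, minus strand), CCGGAAG on the opposite strand: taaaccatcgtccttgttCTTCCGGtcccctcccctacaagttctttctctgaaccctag
Ndufs3 (chr2:90904722-90904781, minus strand), CCGGAAG: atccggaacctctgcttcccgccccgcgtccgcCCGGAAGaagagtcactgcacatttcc
Ndufs8 (chr19:3912907-3912966, minus strand), GCCATNTTG on the opposite strand: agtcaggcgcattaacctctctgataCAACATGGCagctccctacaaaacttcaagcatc
Ndufb5 (chr3:32736963-32737022, plus strand), GCCATNTTG on the opposite strand: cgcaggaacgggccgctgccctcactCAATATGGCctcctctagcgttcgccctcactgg

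Promoter sequences from 250 bases before to 50 bases after the start were found for 59 of the 72 nuclear subunits that were tested. Searched on both strands, the NRF1 letters were in 16 of them (27.1%), against 6.43% of all 27025 promoters and 14.8% of the 8234 promoters of genes expressed in these libraries at a mean of 10 CPM or more. CCGGAAG, of the ETS kind that GABP binds, was in 13 (22.0%, against 9.12% and 18.4%). GCCATNTTG, of the YY1 kind, was in 10 (16.9%, against 2.65% and 4.79%). At least 1 of the 3 was in 34 (57.6%, against 16.3% and 33.3%). Matches of different patterns overlapped in 0 of the 59 promoters and in 0.0333% of all promoters. Subunits with and without a pattern differed little in their change on mH2A1 depletion: the median log2 difference was -0.34 with and -0.36 without the NRF1 letters, -0.36 and -0.35 for CCGGAAG, and -0.36 and -0.34 for GCCATNTTG. A match describes letters only and is not a measured binding site.

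The next question was how abundant the 2 sets of transcripts were. Per kilobase of exon, 7 of the 13 mitochondrial members (mt-Co1, mt-Cytb, mt-Nd1, mt-Nd2, mt-Nd4, mt-Nd5 and mt-Nd6) stood above every nuclear subunit, at 2255 CPM per kilobase or more, and the other 6, described next, stood at 109 or less. In the shScr libraries of the depletion experiment mt-Co1, the catalytic subunit of complex IV, had a mean of 10337 CPM per kilobase, mt-Cytb of complex III 5889 and mt-Nd1 of complex I 5701. The highest nuclear subunit was Cox8a at 505 CPM per kilobase, followed by Cox6a1 at 335 and by Atp5b at 314 and Atp5a1 at 311, the catalytic pair of the ATP synthase. By complex, the median nuclear subunit stood at 50.3 CPM per kilobase in complex I (37 genes), 62.2 in V (16), 94.0 in III (8) and 125 in IV (11).

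Of the 13 mitochondrial members, 6 have a near-identical copy over their whole length. A copy of part of the mitochondrial genome lies on chromosome 1 of the nuclear genome, and in GRCm38.p6 it covers mt-Co2, mt-Atp8, mt-Atp6, mt-Co3, mt-Nd3 and mt-Nd4l over 100% of their length, with 98% identity or more. The copy of mt-Co2, for example, is at chr1:24614882-24615565. Reads that match both places can be lost from the count or credited to the copy, and these genes had 546, 65, 496, 544, 4053 and 221 counts in all 9 libraries together. By comparison, mt-Co1 had 1641969 counts, mt-Cytb 691696 and mt-Nd1 552140. The copy also covers 63.6% of mt-Nd4, and copies of 98% identity or more cover 31.3% of mt-Co1, so that part of their reads can be lost too. The values of the 6 genes are therefore uncertain. So is that of mt-Nd6, encoded on the opposite strand to its neighbours, since the strand setting of the counting is not given in the sources used here.

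Depletion of mH2A1 was accompanied by lower levels of the respiratory chain transcripts of both genomes. Scaled to the typical gene, every one of the 72 nuclear subunits tested had a negative log2 difference from shScr, as did the 12 mitochondrial members tested. Among all 87 nuclear members tested, 83 were negative (74 with library totals alone), and 9 fell with edgeR's quasi-likelihood test at an adjusted p under 0.01 and 0 rose. Among all genes, 4.47% were called lower and 12.6% higher. The median log2 difference was -0.34 over the nuclear members and -0.87 over the mitochondrial members, against 0.01 over all 16179 genes tested. In 66 of the 87 nuclear members every shH2afy library lay below every shScr library, as it did in 25% of all genes. Leaving out any single library of either group left 2 to 5 of the 11 members called. The same fits called 78 to 1020 of all genes lower, against 723 with every library.

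**Figure D1:**
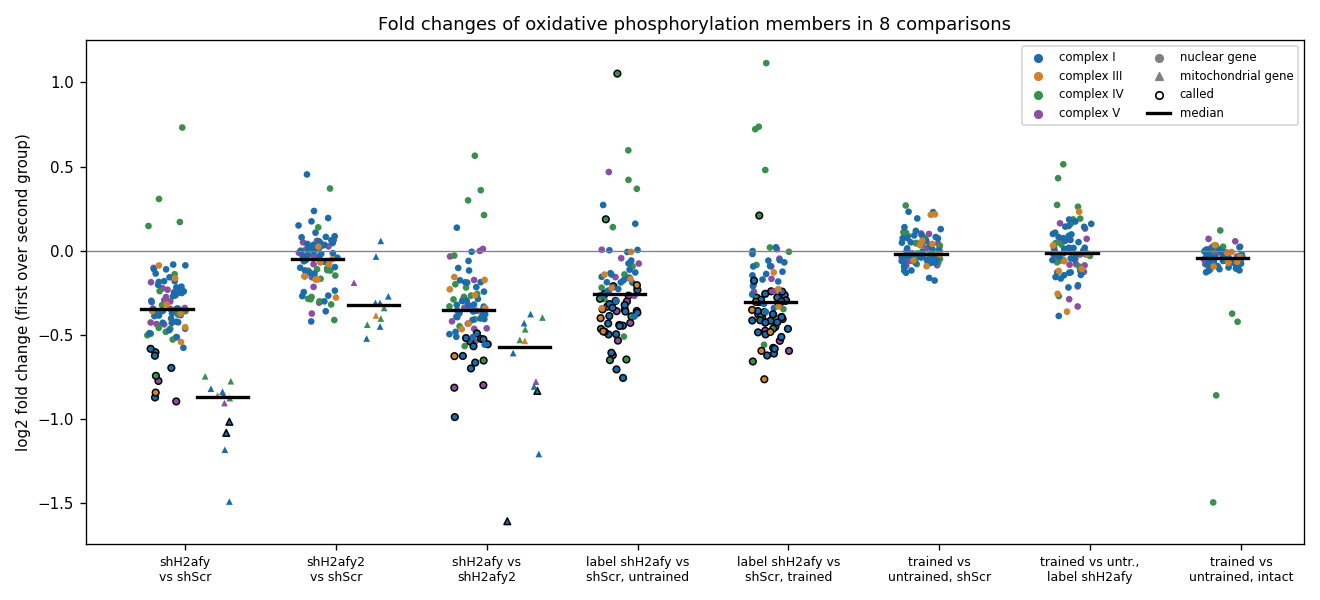
Log2 fold change (vertical axis) of each member in 8 comparisons, with circles for nuclear and triangles for mitochondrial genes, colours for complexes, black edges for members called and bars for medians. In shH2afy against shScr of the depletion experiment the medians are -0.34 and -0.87 (-0.19 and -0.71 with library totals alone), no member is called in shH2afy2 against shScr, and the 3 training comparisons centre near 0.

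In complex I, 5 of 37 nuclear subunits fell. Ndufb3, an accessory subunit of the membrane arm, stood at 80.2, 74.0 and 78.9 CPM in the shScr libraries and at 39.0, 43.9 and 39.4 CPM in the shH2afy libraries. Its groups were well apart, with a log2 difference of -0.87 (SE 0.10, adjusted p = 0.00102), or 54.7% of the shScr level. Ndufv1, the subunit that binds NADH, stood at 192, 193 and 187 CPM in shScr and at 120, 133 and 113 CPM in shH2afy (log2 difference -0.58, SE 0.11, adjusted p = 0.00569). Ndufv2, its iron-sulfur partner, stood at 148, 146 and 165 CPM against 91.4, 99.7 and 95.0 CPM (-0.62, SE 0.11, adjusted p = 0.00576). The accessory subunits Ndufa11 (-0.60) and Ndufb2 (-0.70) fell as well. The 7 nuclear genes of the catalytic core each had all shH2afy libraries below all shScr libraries. Ndufs1, for example, stood at 195, 186 and 152 CPM in shScr and at 113, 130 and 126 CPM in shH2afy, but its adjusted p of 0.0223 missed the threshold. The median nuclear subunit of complex I was at 78.0% of its shScr level.

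In complex III, 1 of 8 nuclear subunits fell. This was Uqcrq, a small accessory subunit, with 106, 93.0 and 127 CPM in shScr and 53.7, 65.9 and 55.5 CPM in shH2afy (log2 difference -0.84, SE 0.16, adjusted p = 0.00737). Uqcrfs1, the Rieske iron-sulfur protein, had a log2 difference of -0.45 (adjusted p = 0.0175), and the large structural subunits Uqcrc1 (-0.32) and Uqcrc2 (-0.37) did not pass the threshold either. In complex IV all 11 nuclear subunits had groups that did not overlap, and 1 was called. Ndufa4, once counted as a complex I subunit and now placed in complex IV, stood at 212, 205 and 238 CPM in shScr and at 114, 133 and 128 CPM in shH2afy (log2 difference -0.74, SE 0.13, adjusted p = 0.00458). Cox4i1, the isoform of subunit 4 used in most tissues, stood at 435, 396 and 495 CPM in shScr and at 302, 315 and 268 CPM in shH2afy, with an adjusted p of 0.0284. The median nuclear subunit was at 77.6% of the shScr level in complex III and at 72.8% in complex IV.

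In complex V, 1 of 16 nuclear subunits fell. Atp5mpl, a small protein of the membrane part of the synthase, stood at 62.4, 65.0 and 67.0 CPM in shScr and at 30.5, 36.9 and 32.8 CPM in shH2afy (log2 difference -0.89, SE 0.11, adjusted p = 0.00137). Atp5b and Atp5a1 had smaller log2 differences of -0.44 and -0.43 (adjusted p = 0.0344 and 0.0318). Atp5b stood at 1305, 1390 and 1296 CPM in shScr and at 922, 1011 and 895 CPM in shH2afy, so its groups did not overlap. The other nuclear member called was Atp5s, a gene also named Dmac2l that is counted here among the assembly factors (log2 difference -0.77, SE 0.16, adjusted p = 0.00912). The median subunit of complex V was at 81.1% of its shScr level.

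**Figure D2:**
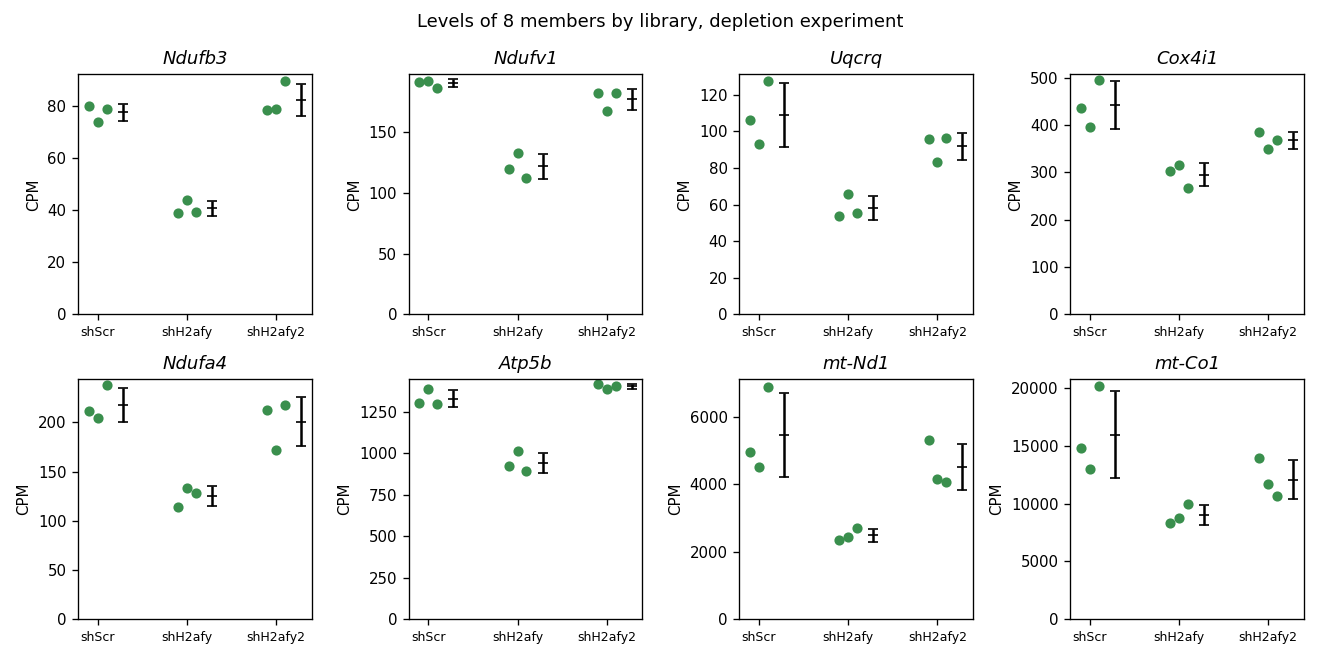
CPM of 8 members in each depletion library, with 1 point per library and the mean and SD of each group (n = 3) beside the points, on axes that start at 0. In each of the 8 the 3 shH2afy points lie below the 3 shScr points, for example 39.0 to 43.9 against 74.0 to 80.2 CPM in Ndufb3.

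Few members went against this direction. The 4 nuclear members with a positive log2 difference were Cox6b2 (0.73), Cox6a2 (0.31), Ndufa4l2 (0.17) and Cox7a2l (0.15), and none was called. The isoforms Cox6a2, Cox6b2, Cox4i2, Cox7a1 and Ndufa4l2, known from muscle, testis, lung or low oxygen, were nearly silent here, with no library of the depletion experiment above 4.82 CPM, so that small changes could not be detected. Their common counterparts Cox4i1, Cox6a1, Cox6b1, Cox7a2, Cox8a and Ndufa4 all had negative differences. Cox7a2l, which encodes a factor of respiratory supercomplexes, was well expressed, with 114, 113 and 125 CPM in shScr and 135, 128 and 110 CPM in shH2afy, and its groups overlapped.

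The mitochondrial members had the larger log2 differences, and also the larger spread between mice. Mt-Nd1 stood at 4963, 4522 and 6884 CPM in the shScr libraries and at 2340, 2423 and 2698 CPM in the shH2afy libraries (mt-Nd1, log2 difference -1.08, SE 0.22, adjusted p = 0.00929). For mt-Nd2, the values were 4081, 3448 and 5056 CPM against 1784, 1960 and 2253 CPM (-1.02, SE 0.21, adjusted p = 0.00976). Both fell. The values of mt-Co1 were 58.4% of the shScr level, those of mt-Cytb 55.2%, of mt-Nd4 55.2%, of mt-Nd5 56.7% and of mt-Nd6 56.0%, each with groups that did not overlap and an adjusted p between 0.0172 and 0.0484. Among the members with a nuclear copy, mt-Nd3 had a log2 difference of -1.49, mt-Nd4l -1.18, mt-Atp6 -0.90, mt-Co3 -0.88 and mt-Co2 -0.75, none called. Mt-Atp8 was not tested.

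Summed within a library, the nuclear subunits gave 10360, 10265 and 10931 CPM in shScr, 7665, 8260 and 7059 CPM in shH2afy, and 10548, 9787 and 10620 CPM in shH2afy2. The mitochondrial members gave 38664, 33797 and 51503 CPM in shScr, 19932, 20935 and 24866 CPM in shH2afy, and 37494, 30196 and 29433 CPM in shH2afy2. In both sums the shH2afy libraries were the 3 lowest of the 9. Their mean was 72.8% of the shScr mean for the nuclear and 53.0% for the mitochondrial sum. The ratio of the mitochondrial to the nuclear sum was 3.73, 3.29 and 4.71 in shScr, 2.60, 2.53 and 3.52 in shH2afy, and 3.55, 3.09 and 2.77 in shH2afy2, so that the ratios of the groups overlapped. The nuclear sums of all 4 complexes were close in their relative level, from 69.9% of shScr in complex IV to 74.1% in complex III.

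**Figure D3:**
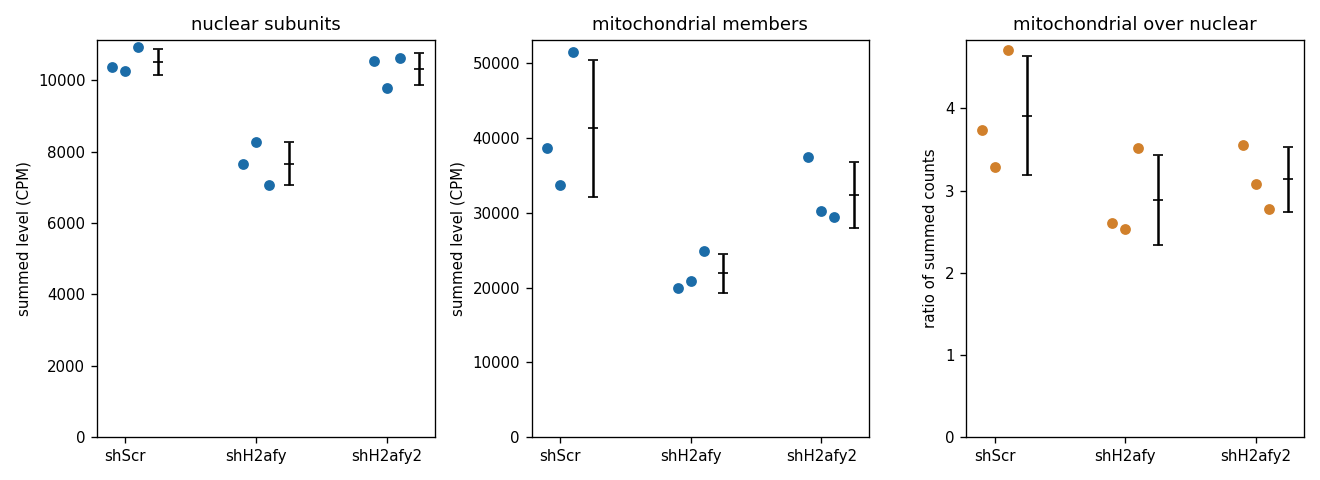
Summed CPM of nuclear subunits (left) and of mitochondrial members (middle) and their ratio (right) in each of the 9 depletion libraries, with the mean and SD of each group (n = 3). The shH2afy libraries are the lowest in both sums, from 7059 to 8260 CPM and from 19932 to 24866 CPM, while the ratios overlap between groups.

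CPM values here are scaled so that the typical gene does not differ between libraries. With library totals alone, the median of all genes moved to 0.16 and that of the nuclear members to -0.19 (74 of 87 negative) in the mH2A1 depletion. Then 2 members were called, both lower, as were 323 of all 16179 genes. Relative to the typical gene the nuclear members lay 0.35 lower on the log2 scale. A change of scaling shifts all genes nearly alike, so this distance is the same under either scaling by construction. As a share of all counts, nuclear members made up 0.80% to 0.95% of the shH2afy libraries and 0.99% to 1.11% of the shScr libraries, which did not overlap.

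Markers of other cell types moved with these values. All 8 microglia and macrophage markers rose in the shH2afy libraries, with summed levels of 1582 to 3149 CPM against 249 to 376 CPM in shScr, and so did all 6 reactive astrocyte markers (4681 to 6110 CPM against 327 to 724 CPM). The 6 general neuron markers had a median log2 difference of -0.79 and summed levels of 2272 to 3272 CPM against 4318 to 6169 CPM, with 1 called lower. The 7 CA1 pyramidal markers had a median of -1.0 (2770 to 4787 CPM against 5400 to 8041 CPM), and the 6 inhibitory neuron markers one of -1.09 (485 to 612 CPM against 996 to 1070 CPM, 4 called lower). No marker of these lists was at 0 in any group. In bulk tissue fewer cells of a type and less RNA per cell cannot be told apart. The part of these markers in the respiratory chain result was not tested. Divided by the summed neuron markers, the nuclear subunits stood at 2.16 to 3.37 in shH2afy and 1.66 to 2.53 in shScr, which overlapped. Oligodendrocyte, endothelial, choroid plexus and blood markers had 0 called of 5 each, and 2 of the 5 homeostatic astrocyte markers rose.

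Other mitochondrial pathways, and glycolysis, were described beside these values for the mH2A1 depletion. Over all genes 4.47% were called lower and 12.6% higher, and lists with few calls lie near these shares. Complex II, which belongs to both the respiratory chain and the citric acid cycle and has no mitochondrially encoded subunit, had 0 of 8 genes called and a median log2 difference of -0.13, with Sdha, its flavoprotein, at -0.45 (adjusted p = 0.0191). The 5 electron carriers and subunits outside the name rule had 0 called and a median of -0.42 (Cyc1 -0.42, Cycs -0.32). The citric acid cycle and pyruvate dehydrogenase list had 6 of 19 genes lower, including citrate synthase, Cs (-0.76), and Idh3a (-0.79), and 1 higher, Suclg2 (0.83), with a median of -0.37. Glycolysis had 3 of 18 gene identifiers lower, including the neuronal enolase Eno2 (-0.71) and Aldoc (-0.72), and 1 higher, Hk2, a hexokinase (3.12). Carriers, pores and import proteins had 3 of 18 lower, the outer membrane channel Vdac1 (-0.62), the aspartate and glutamate carrier Slc25a12 (-0.58) and the chaperone Hspd1 (-0.54). Dynamics and mitophagy had 2 of 11 lower, Pink1 (-0.72) and Mff (-0.60).

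Lists for making and assembling the complexes were described in the same way, beside the same shares over all genes (4.47% lower and 12.6% higher). Assembly factors outside the name rule had 1 of 41 called, Coa4 (1.25, higher), and a median of -0.08. Mitochondrial DNA maintenance and expression had 1 of 24 called, the RNA-degrading enzyme Pnpt1 (0.62, higher), and a median of -0.04, with the transcription and packaging factor Tfam at -0.14 (adjusted p = 0.349). The mitochondrial ribosome had 1 of 77 higher (Mrps6, 0.73) and 1 lower (Mrpl35, -0.65), with a median of -0.11. The 18 mitochondrial ribosomal and transfer RNAs had a median of -1.0, and 3 of them were lower (mt-Tq -1.93, mt-Ti -1.44, mt-Tm -1.22). Of the 12 regulators of mitochondrial biogenesis, 3 fell, among them the coactivator Ppargc1a (-0.77) and the deacetylase Sirt3 (-0.66), and 2 rose, Nfe2l2 (2.50) and the ETS factor Gabpa (0.55). Of the 9 genes of defence against reactive oxygen, the uncoupling protein gene Ucp2 rose (3.33) and Sod2, the mitochondrial superoxide dismutase, fell (-0.58).

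Over the 9 depletion libraries, the genes whose log2 CPM followed the mean of the nuclear subunits most closely were Tomm40 (Pearson r 0.981), Aes (0.981), Cuedc2 (0.979), Nrsn2 (0.974) and Grcc10 (0.971). Those closest to the mitochondrial members were Ccdc106 (0.985), mt-Rnr2 (0.979), Ndrg2 (0.968), Alcam (0.968) and mt-Te (0.961). These were the highest of 10372 genes ranked, the libraries share the groups of the design, and the values are a description only.

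In the mH2A2 depletion edgeR called no member and 0% of all genes, with 3238 of 15609 genes at an unadjusted p under 0.05, and DESeq2 called 486 genes and 0 members. The median log2 difference was -0.05 over the nuclear members and -0.32 over the mitochondrial members, against -0.01 over all genes. Single libraries moved these medians: the mitochondrial one was -0.09 without shScr replicate 3 and -0.54 without shH2afy2 replicate 1, and the nuclear one was 0.02 without shScr replicate 3 and 0.01 with library totals alone. Of the 87 nuclear members, 9 had an unadjusted p under 0.05, and 9 had every shH2afy2 library below every shScr library, as 10.7% of all genes did. The member with the smallest adjusted p was the complex I assembly factor Ndufaf4, with 47.4, 51.3 and 57.2 CPM in shH2afy2 and 39.2, 38.2 and 34.2 CPM in shScr (log2 difference 0.45, adjusted p = 0.0806). The median nuclear subunit was at 99.8% of shScr in complex I, 92.3% in complex III, 92.1% in complex IV and 99.8% in complex V. The median SE of a nuclear member was 0.10 on the log2 scale.

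The depletions were also compared directly, shH2afy against shH2afy2, since both had been compared with the same shScr mice. Here 15 nuclear and 2 mitochondrial members were lower in shH2afy and 0 were higher, with 6.74% of all genes called lower and 9.83% higher. The nuclear members were Ndufb3 (-0.99), Ndufv2, Atp5mpl, Ndufa5, Ndufaf4, Ndufb10, Atp5s, Ndufaf3, Ndufs3, Uqcrq, Ndufs1, Ndufa9, Ndufb6, Ndufa4 and Ndufa12, and the mitochondrial ones mt-Nd3 (-1.61, uncertain because of its nuclear copy) and mt-Nd1 (-0.83). Of the complex I core, Ndufs1 stood at 113, 130 and 126 CPM in shH2afy and at 182, 175 and 185 CPM in shH2afy2 (log2 difference -0.52, SE 0.10, adjusted p = 0.00854). The median was -0.35 over nuclear and -0.57 over mitochondrial members. The count was 0 without shH2afy replicate 1 or without shH2afy2 replicate 3, and 9 with the replicate number as a block. Over all genes 2, 70 and 3716 were called in these fits, against 2699 in the main fit. The general neuron markers summed to 4595 to 5449 CPM in shH2afy2, against 2272 to 3272 CPM in shH2afy. Divided by these markers, the nuclear subunits stood at 2.16 to 3.37 in shH2afy and 1.94 to 2.13 in shH2afy2. Relative to the neuron markers, the subunits were thus higher in every shH2afy library. The part of the markers in the difference was not tested.

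The training experiment gave other mice with the same virus labels. Relative to the typical gene, nuclear members were lower in the libraries labelled shH2afy, in which Macroh2a1 itself, counted with its introns, was not lower. In untrained mice 38 of 87 members were called lower and 2 higher at an adjusted p under 0.05, while 21.7% of all genes were lower and 26.2% higher. In 51 members the groups did not overlap, with the libraries labelled shH2afy lower, as in 30.7% of all genes. In trained mice 49 were lower and 1 was higher (all genes 21.7% and 24.2%), and 60 members did not overlap and were lower (29.2% of all genes). The median log2 difference was -0.26 in untrained and -0.30 in trained mice. These members' direction depended on the scaling: with library totals alone the medians were -0.00 and -0.05, the median of all genes 0.26 and 0.24, and 44 and 53 of the 87 members were negative. Calls among members were then 6 lower and 4 higher in untrained mice and 13 lower and 6 higher in trained mice. Of all 15799 genes tested in untrained mice, 8138 were then called, 1188 of them lower. In trained mice 7926 of 15703 were called, 1230 of them lower. As a share of all counts, nuclear members made up 0.23% to 0.26% of the libraries labelled shH2afy and 0.23% to 0.27% of the shScr libraries. The lower values thus hold against the typical gene of these libraries and not against the total.

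Among single members, Ndufb3 stood at 16.1, 15.9 and 15.4 CPM in untrained shScr mice and at 10.1, 8.70 and 9.86 CPM in untrained mice labelled shH2afy (log2 difference -0.70, SE 0.083, adjusted p = 0.000553). In trained mice it stood at 15.1, 14.8 and 16.8 CPM against 10.7, 9.09 and 10.7 CPM (log2 difference -0.61). Ndufs1, the largest subunit of complex I, stood at 79.9, 83.3 and 84.2 CPM against 60.7, 58.6 and 60.1 CPM in untrained mice, and at 80.4, 79.1 and 83.2 CPM against 60.7, 59.3 and 60.5 CPM in trained mice. In both genes the groups were separate in both training states. The members with the smallest adjusted p in untrained mice were, besides these, Atp5md (-0.62), Ndufaf4 (-0.61), Cox7c (-0.46), Ndufa5 (-0.76), Ndufv2 (-0.43), Ndufa4 (-0.65), Cox7a2 (-0.39) and Ndufb2 (-0.44). In trained mice they included Atp5g3 (-0.59), a gene of the rotating ring of the synthase, Uqcrq (-0.76), Atp5a1 (-0.47), Ndufs1 (-0.42), Ndufa4 (-0.66), Uqcrfs1 (-0.59), Ndufb2 (-0.58), Atp5pb (-0.43) and Ndufv1 (-0.48). The members called higher were Cox7a2l (0.19 in untrained and 0.21 in trained mice) and, in untrained mice, Cox6b2 (1.05), which stood at only 0.539, 0.651 and 0.682 CPM in shScr and 1.19, 1.25 and 1.39 CPM in the libraries labelled shH2afy. By complex, the nuclear subunits called lower in trained mice were 23 of 36 in complex I, 5 of 8 in III, 8 of 11 in IV and 10 of 17 in V.

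Set side by side, 85 nuclear members were tested in the depletion and in both training states, and 72 were lower and 4 higher in all 3 comparisons. Of the 8 among them that were called lower in the depletion, 7 were also called lower in untrained and 8 in trained mice. Of all genes, 21.7% were called lower in each training state. How many of all genes were lower in all 3 comparisons was not counted, so these counts do not set the members apart from other genes. The training states share no libraries with the depletion, but the direction again rests on the scaling to the typical gene. Counts of the training experiment also include introns. Its calls used an adjusted p under 0.05 and those of the depletion one under 0.01, so neither measure nor threshold was the same. In the training experiment the general neuron markers summed to 2670 to 3044 CPM in the libraries labelled shH2afy and to 4328 to 5183 CPM in shScr, the microglia markers to 843 to 1319 CPM against 191 to 349 CPM, and the reactive astrocyte markers to 1665 to 1993 CPM against 277 to 579 CPM, with no marker at 0. Their part in the difference was not tested. The nuclear subunits divided by the neuron markers gave 0.66 to 0.73 in the libraries labelled shH2afy and 0.48 to 0.56 in shScr, with no overlap. So relative to the neuron markers, the subunits were higher in the libraries labelled shH2afy.

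**Figure D4:**
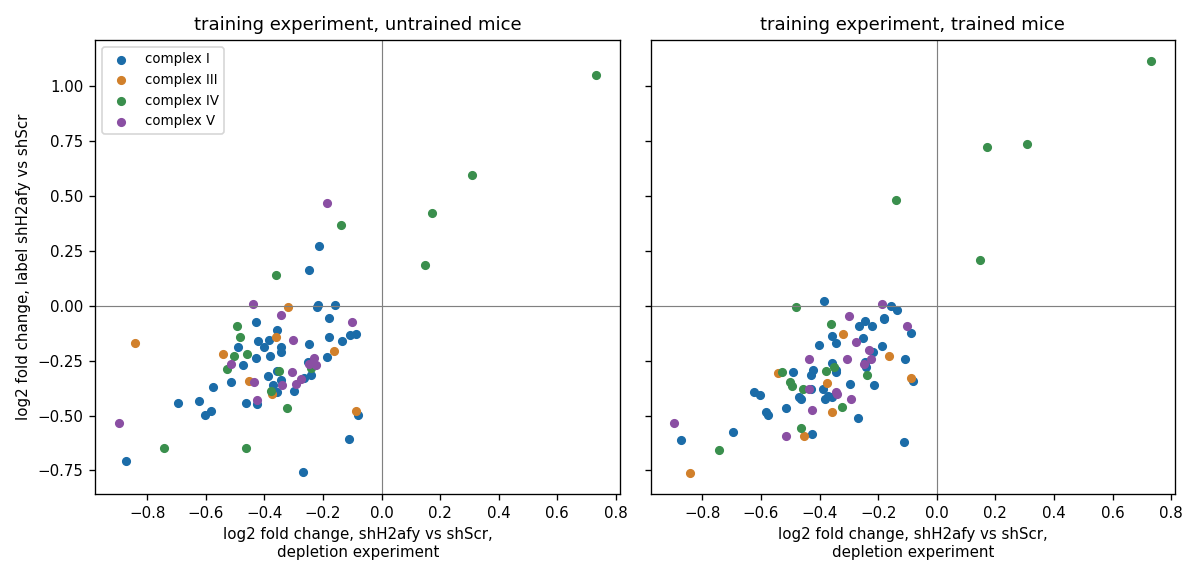
Log2 fold change of each nuclear member in the depletion experiment (horizontal axes) against that between libraries labelled shH2afy and shScr (vertical axes) in untrained (left) and trained mice (right), relative to the typical gene, with 1 point per gene coloured by complex. Of the 85 members, 72 lie below 0 in all 3 comparisons (the share of all genes that do so was not counted), but with library totals alone the vertical medians are -0.00 and -0.05.

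No member was called after fear conditioning. In shScr mice edgeR called 0 of 87 members and 0% of all genes 1 h after training, and 2 members and 1382 of 15424 genes had an unadjusted p under 0.05. DESeq2 called 263 genes and 0 members. The log2 differences of members ran from -0.18 to 0.27, with a median of -0.02 and a median SE of 0.085. Summed nuclear subunits were at 99.6% of the untrained level. In the libraries labelled shH2afy 0 members were called (0% of all genes, median -0.01), with 1 member of 87 at an unadjusted p under 0.05, and DESeq2 called 47 genes and 0 members. The difference between the 2 training responses, tested as an interaction over all 12 libraries, gave 0 calls among members (0% of all genes), with 0 members and 333 of 15997 genes at an unadjusted p under 0.05 and 0 genes called by DESeq2.

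In intact mice, without virus, 0 of 87 members were called after training, while 0.0959% of all genes were. Of the 87 members, 71 had a negative log2 difference, with a median of -0.04 against -0.01 over all genes. This rested on single libraries: without trained replicate 1 the median was 0.00 with 43 negative, and without trained replicate 2 it was -0.08 with 81 negative. In 18 of the 87 members both trained libraries lay below the 3 untrained ones, as they did in 19.1% of all genes. The summed nuclear subunits were at 97.2% of the untrained level, with 8884 and 9391 CPM after training and 9093 to 9590 CPM without, and they overlapped. The most negative value was that of Cox7b2 (-1.50, adjusted p = 0.181), an isoform at 0.0732 and 0.0981 CPM after training and at 0.301, 0.279 and 0.144 CPM without. Only 1 member had an unadjusted p under 0.05 with edgeR, against 3120 of 15641 genes, and DESeq2 called 472 genes and 0 members. The general neuron markers summed to 5054 and 5213 CPM after training and to 5211 to 5910 CPM without.

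The last data set bears on where the histone variants lie. The authors called domains of mH2A1 or mH2A2 enrichment in 30 chromatin samples of hippocampal area CA1, with and without training, at 30 min, 1 h and 6 h. The start sites of 68 nuclear subunits were compared with these domains, as a description with no test. In every group of libraries the median share of subunit start sites inside a domain was below that of the genes expressed in area CA1. In the mH2A1 libraries of the 6 h experiment it was 0% to 1.47%, against 6.94% to 9.85% of expressed genes and 20.4% to 24.2% of all genes. In the mH2A2 libraries of the 1 h experiment the spread between samples was wide, from 0% to 33.8% in untrained mice, where expressed genes ranged from 2.31% to 44.1%. A share of 0 of 68 allows up to 4.41%. Of the 68 start sites, 29 were in no domain of any of the 30 libraries and 37 in a domain of 1 to 6 libraries. Atp5d, the delta subunit of the ATP synthase, was inside a domain in 12 libraries, 4 for mH2A1 and 8 for mH2A2.

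**Figure D5:**
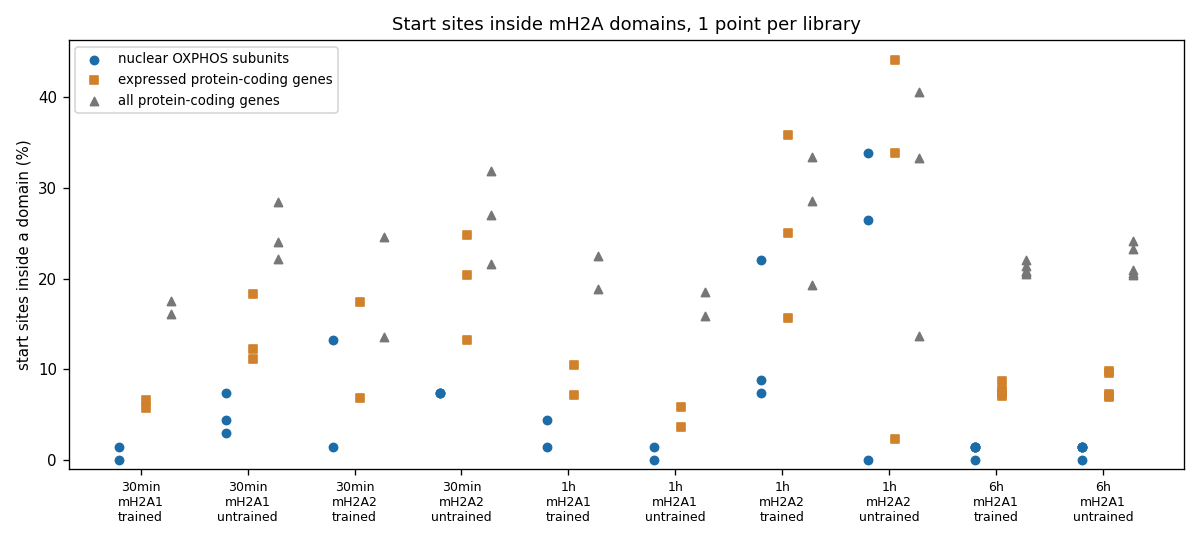
Percent of start sites inside an mH2A domain in each of the 30 chromatin libraries by group, with 1 point per library for the 68 nuclear subunits, for expressed and for all protein-coding genes. In the 6 h mH2A1 libraries the subunits lie at 0% to 1.47% and the expressed genes at 6.94% to 9.85%.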

How the data were processed

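RNA-seq was measured in 26 samples of CA1 tissue, each from a separate mouse by the group sizes the study gives, with 3 tables of deposited raw counts per gene. The authors aligned reads to mm10 with STAR, counted them with featureCounts and tested them with DESeq2 1.22.2. Training libraries were ribosome-depleted, were counted over whole transcripts, introns included, and came from another sequencing centre than the rest. The depth was 9954415 to 92226421 counts per library. The deposited domain lists (other values: positions only) were made by the authors per chromatin sample after alignment with Bowtie2, and 30 were used. The submitters' processing notes name SICER as caller and the study's methods name epic2 and MACS2, so which of them made these lists is not settled here. Input files, signal tracks and the authors' own comparisons were not used.

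Genes passing filterByExpr (least count 10, least total 15) were scaled by TMM and tested with the edgeR 4.0.16 quasi-likelihood test in R 4.3.3, with Benjamini-Hochberg adjustment over all genes, on the groups compared only. Calls used the study's adjusted p thresholds, 0.01 for the depletion and intact mice and 0.05 for the training experiment, without its fold thresholds (2 and 1.2). Scripts were checked on simulated counts. CPM values are TMM-scaled. Of the 116 depletion members 17 were not tested: 12 pseudogenes or copies with at most 49 counts, mt-Atp8 (65 counts), Cox8b (23), Cox7b2 (37), Cox8c (0) and a duplicate Atp5o identifier (0). Untested were also 3 members in the training table and 1 in intact mice. Complexes and roles were assigned from textbook knowledge, those of the 12 pseudogenes or copies after the tables were seen, and Atp5pb of the training table was matched to Atp5f1. Replicates of a group differed by more than sampling noise in every pair. Named were all mitochondrial members, the 3 nuclear members per complex with the smallest p in the mH2A1 depletion, called members (the 10 with the smallest adjusted p where more were called), core subunits, isoform pairs, and up to 3 genes per pathway list. Of the core subunits, isoforms and called members some are given by count or range only. Genes were ranked for likeness among those with a mean of at least 10 CPM. Members and lists were chosen with earlier results of these data known. Alternatives were DESeq2 1.42.0, other scalings and filters, leaving out each library, and a replicate block. Same-numbered samples correlated in their deviations from group means by 0.158 to 0.262 in the scramble training comparison. The main fit did not pair them, and the alternative with the replicate block called 0 genes there. Nuclear copies were found with blastn 2.17.0 (98% identity or more over 100 bases or more), and start sites were taken from GENCODE for the same build. Levels per length used the exons of GENCODE. Some single-gene values are not reported here.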

Additional observations from a re-analysis of the deposited data

Results flagged for a closer look

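In the 6 h mH2A1 chromatin samples, the share of nuclear subunit start sites inside a domain was 0% (0 of 68) in trained replicate 4 and in untrained replicate 1. It was 1.47% (1 of 68) in the other 4 samples of each group, which set these samples apart by 1 gene. A count of 0 of 68 allows up to 4.41%, and the criterion picks about 1 in 20 groups by chance where values are continuous, which these shares, moving in steps of 1 gene, are not.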

How the results depend on the processing

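With edgeR, 11 members were called in the mH2A1 depletion and 17 in mH2A1 against mH2A2 depletion. In untrained and trained mice labelled shH2afy, in which Macroh2a1 counted with its introns was not lower, 40 and 50 were called. In the mH2A1 depletion the count was 37 with DESeq2, 18 without a filter on low counts, 38 when all 9 libraries entered the fit, 2 past the study's fold, and 2 to 5 when any single library was left out. Calls over all genes moved as well. Genes called lower numbered 723 in the main fit, 1739 with DESeq2, 1504 without the filter and 1536 with all 9 libraries. With a single library left out they numbered 78 to 1020. In mH2A1 against mH2A2 depletion the count of members was 40 with DESeq2, 33 without the filter, 1 past the study's fold and 0 to 13 with a library left out, with 0 when shH2afy replicate 1 or shH2afy2 replicate 3 was left out. Those last fits called 2 and 70 of all genes, against 2699 in the main fit, 4661 with DESeq2 and 4859 without the filter. With library totals alone, chosen after seeing the data, the counts were 2, 4, 10 and 19, of which 6 were lower and 4 higher in untrained mice and 13 lower and 6 higher in trained mice. Over all genes 2885, 2499, 8138 and 7926 were then called, of which 323, 529, 1188 and 1230 were lower. With a library left out, 29 to 52 members were called in untrained and 33 to 54 in trained mice. Over all genes 5944 to 7972 and 4793 to 7202 were called in these fits. With the replicate number as a block, 1 member was called in the mH2A1 depletion and 9 in mH2A1 against mH2A2 depletion. Over all genes 1194 and 3716 were then called. Same-numbered libraries did not deviate together in the mH2A1 depletion (correlations of -0.292 to -0.164). In mH2A1 against mH2A2 depletion the correlations were -0.203, 0.512 and 0.432 for replicates 1, 2 and 3, and a pairing there was not tested. The block changed no call of a member by training. The cause of these changes was not tested. Nuclear members in the libraries labelled shH2afy could change sign with library totals alone. Of 87, 44 were then negative in untrained mice against 75 in the main fit, and 53 against 79 in trained mice. Medians near 0 also changed sign: the nuclear median ranged from -0.08 to 0.02 in the mH2A2 depletion, from -0.07 to 0.03 for training with scramble, from -0.05 to 0.06 for training in libraries labelled shH2afy, from -0.04 to 0.05 for the interaction and from -0.08 to 0.00 in intact mice. Of the values for single genes under the alternatives, 662 stayed on their side of the threshold, 122 no longer passed it and 41 newly did. The median of nuclear members ranged from -0.46 to -0.19 in the mH2A1 depletion, from -0.36 to -0.00 in untrained and from -0.36 to -0.05 in trained mice. That of mitochondrial members in the mH2A1 depletion ranged from -1.06 to -0.71, the alternative without the members that have a nuclear copy, also chosen after seeing the data, included. Depth limits the isoforms under 5 CPM and the mitochondrial members with a nuclear copy.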
